A study of Mus musculus with 12 samples.

Results

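The stromal vascular fraction (SVF) of mouse white fat was examined for 10 genes of the lipid droplet and of lipolysis, Plin2, Plin3, Plin1, Plin4, Cidec, Pnpla2, Lipe, Abhd5, G0s2 and Hilpda. They were named as a list and not by a rule on measured values, though with earlier results of these data known. All 10 were among the 31053 genes counted in each of 12 single-cell libraries. Levels are unique molecular identifiers (UMIs, 1 per captured RNA molecule) summed over the cells of 1 class in 1 library and given as CPM, the count per 1000000 UMIs of that sum, a scale on which 1 gene may be compared across classes and libraries.

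A lipid droplet is a core of triglyceride and sterol ester inside a single phospholipid layer, and the perilipins coat it. Perilipin 1 and perilipin 4 are known mainly from adipocytes, and perilipin 2 and perilipin 3 are made by most cell types. Cidec is the adipocyte protein that enlarges droplets by fusing them. Lipolysis begins with adipose triglyceride lipase (Pnpla2), which needs its coactivator Abhd5 and is held back by G0s2 and by the hypoxia-inducible Hilpda, and goes on with hormone-sensitive lipase (Lipe). In fat, lipid-associated macrophages (LAM) are known for storing and breaking down lipid, and several of these genes are textbook targets of PPARγ, the nuclear receptor that rosiglitazone activates.

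Male mice of 12 weeks gave epididymal fat (eWAT) and inguinal fat (iWAT). WT-Veh were lean C57BL/6J mice given the methylcellulose vehicle, ob/ob-Veh were leptin-deficient Lepob/Lepob mice given vehicle, and ob/ob-Rosi were Lepob/Lepob mice given rosiglitazone at 30 mg/kg by oral gavage in the morning and the evening for 3 days. Each group had 2 libraries in each depot, labelled as biological replicates, so an exact permutation test of one value between 2 groups cannot go below 0.333. Adipocytes float off when fat is digested, and lipid-laden cells may leave with them, so the libraries describe the cells that sank. Below, the ob/ob effect is ob/ob-Veh against WT-Veh, the Rosi effect compares ob/ob-Rosi with ob/ob-Veh, and the ob/ob-Veh libraries serve in both.

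Cell classes were clusters named from marker genes alone, so macrophages, EC and the rest are short for cells like them. After filtering, 57613 eWAT cells and 68482 iWAT cells were kept, from libraries of 20132553 to 92475986 UMIs. The 66 pairs of libraries shared 0.191 to 3.29% of the cell barcodes of the smaller one. In iWAT, the WT-Veh replicate 1 library stood apart, with a median of 1132 UMIs per cell and 7705 of its 17063 cells in 1 cluster that no marker list named, and the calls in the broad iWAT classes were made again without it. The iWAT levels, subclasses and depot comparisons below include it. Of its 2644 EC, 2371 lay in 1 cluster of which the other libraries held at most 7 cells. Other iWAT medians were 1998 and 1919 UMIs per cell in ob/ob-Veh, 3714 and 3160.5 in ob/ob-Rosi, and 4671 in WT-Veh replicate 2. The median mitochondrial share was highest in ob/ob-Veh, at 9.05 and 8.06%, against 5.89 and 3.32% in WT-Veh and 4.48 and 2.17% in ob/ob-Rosi. Both values set ob/ob-Veh apart from ob/ob-Rosi in iWAT. Thinning, an alternative below, evens out UMIs per cell alone. The part of the mitochondrial share in the iWAT effects was not tested. Lep, the gene mutated in ob/ob mice, keeps its transcript, so the presence of its RNA does not check the genotype. Per 100 UMIs of the adipocyte gene Adipoq, Lep came to 28.0 and 42.5 UMIs in WT-Veh, 3.95 and 16.2 in ob/ob-Veh, and 240.0 and 390.1 in ob/ob-Rosi of eWAT. The same ratio in iWAT was 20.1 and 31.6 in WT-Veh, 36.4 and 15.1 in ob/ob-Veh, and 164 and 141 in ob/ob-Rosi, and WT-Veh and ob/ob-Veh overlapped there. In the LAM shares and the immediate early genes of eWAT macrophages, described below, ob/ob-Veh stood apart, and WT-Veh and ob/ob-Rosi were close to each other. No value here checks the labels of the groups, so each ob/ob and Rosi effect below is one between groups as labelled.

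Plin2, Hilpda and Pnpla2 were each lower in ob/ob-Veh macrophages of both depots, so the sequence around the start of each is printed here, from 250 bases before to 50 bases after the start that RefSeq annotates on GRCm38.p6. The strand is that of the gene, and capitals mark ACGTG, the core that hypoxia-inducible factors read, on either strand. For Hilpda, the second of the starts RefSeq gives is shown, and no other Hilpda window held the core.
Plin2: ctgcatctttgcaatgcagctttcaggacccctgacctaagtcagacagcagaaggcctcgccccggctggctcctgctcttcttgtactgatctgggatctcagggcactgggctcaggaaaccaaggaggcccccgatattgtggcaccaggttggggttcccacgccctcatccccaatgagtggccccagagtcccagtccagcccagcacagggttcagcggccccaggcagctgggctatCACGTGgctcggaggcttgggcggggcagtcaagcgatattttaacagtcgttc
Hilpda: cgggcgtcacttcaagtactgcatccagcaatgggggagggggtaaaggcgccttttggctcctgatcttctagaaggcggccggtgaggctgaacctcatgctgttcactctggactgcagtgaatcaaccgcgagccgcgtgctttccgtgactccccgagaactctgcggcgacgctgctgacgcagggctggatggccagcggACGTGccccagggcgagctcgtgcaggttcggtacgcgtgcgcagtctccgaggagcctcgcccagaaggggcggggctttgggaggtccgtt
Pnpla2: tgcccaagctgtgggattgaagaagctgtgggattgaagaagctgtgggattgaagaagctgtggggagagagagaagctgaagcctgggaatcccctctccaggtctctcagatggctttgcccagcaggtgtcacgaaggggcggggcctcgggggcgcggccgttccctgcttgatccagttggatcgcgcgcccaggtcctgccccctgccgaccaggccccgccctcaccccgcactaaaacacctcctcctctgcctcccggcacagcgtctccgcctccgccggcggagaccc
The windows lie at chr4:86670010-86670309 (minus strand), chr6:29272376-29272675 (plus strand) and chr7:141454938-141455237 (plus strand). In Plin2 the core was read on both strands of 1 overlapping stretch, CACGTG, in Hilpda it was found once, and in the Pnpla2 window these letters did not occur. The core was present in 6447 of 32851 RefSeq windows of this length (19.6%) and in 3 of the 13 windows of the members, those of Plin2, Lipe and Hilpda. The sequence AGGTCANAGGTCA, a perfect spaced repeat of the kind PPARγ and its partner bind, was in 13 of all windows (0.0396%) and in 0 of the 13.

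Plin2, the perilipin of most non-adipocyte droplets, was highest in macrophages, at 491 to 2532 CPM over the 6 eWAT libraries, followed by endothelial cells (EC) at 460.0 to 1531 CPM. Natural killer, T and innate lymphoid cells (NKT), adipocyte progenitor cells (APC), dendritic cells (DC), B cells (BC) and mesothelial cells came after them. Each neighbouring pair from NKT downward overlapped within its spread, with adjusted exact permutation p from 0.281 to 0.781. In iWAT the order was macrophages, EC, APC, NKT and BC. The lipase gene Pnpla2 had another order. It was highest in EC, at 235 to 1603 CPM in eWAT and 170 to 1783 CPM in iWAT, and each iWAT library held more of it in EC than in macrophages, in macrophages than in NKT, and in NKT than in APC, with an exact permutation p of 0.0312 for each step, the smallest 6 libraries allow (adjusted 0.0417). Lipe, which encodes the lipase that acts after Pnpla2, was also highest in EC, at 122 to 196 CPM in eWAT and 89.9 to 292 CPM in iWAT, against 9.53 to 27.4 CPM in eWAT macrophages and 16.4 to 35.8 CPM in iWAT macrophages.

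G0s2, the inhibitor of adipose triglyceride lipase, was highest in APC among the classes present in both depots, at 126 to 364 CPM in eWAT and 8.95 to 170 CPM in iWAT. In the 4 iWAT libraries with enough neutrophils it stood at 323 and 1489 CPM in WT-Veh and at 1274 and 571 CPM in ob/ob-Rosi. Plin3, the perilipin that moves from cytosol to new droplets, and Abhd5, the coactivator, were highest in APC by their means. In eWAT, Plin3 ranged from 51.9 to 135 CPM in APC, 48.4 to 78.4 CPM in mesothelial cells, 44.9 to 76.3 CPM in macrophages and 23.7 to 59.96 CPM in NKT. Abhd5 ranged from 26.9 to 45.2 CPM in APC, 28.3 to 37.6 CPM in EC, 21.6 to 30.2 CPM in macrophages and 12.4 to 18.4 CPM in NKT. The EC range of Abhd5 lay within that of APC. Of 100 neighbouring steps over all members and both depots, 26 had the smallest exact p their libraries allow. The p-values were adjusted over the steps of 1 gene in 1 depot, and so only a gene with most of its steps at that p could pass, as the 3 of Pnpla2 in iWAT did.

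In eWAT the ob/ob effect passed the test in 17 of the 54 pairs of a member and a class tested, 4 higher and 13 lower, and the Rosi effect in 15 of 54, 10 higher and 5 lower. A call was an adjusted p of at most 0.05, over all genes of the class, with a change of at least 1.1-fold. Over all genes and classes of eWAT, 9.68% of pairs passed for the ob/ob effect and 9.9% for the Rosi effect. In iWAT 7 of 42 pairs passed for the ob/ob effect, all lower, against a background of 2.84%, and 4 of 42 for the Rosi effect, 3 higher and 1 lower, against 4.85%. For ob/ob-Rosi set against WT-Veh, the edgeR test called 1 pair in eWAT (background 0.0411%) and 0 in iWAT (background 0.0146%), where 10 pairs had an unadjusted p under 0.05 and DESeq2 called 3. The choice of method moved these counts too, as given with the processing near the end. Single libraries also moved them. Without WT-Veh replicate 1, WT-Veh replicate 2 or ob/ob-Veh replicate 2, the eWAT ob/ob effect gave 10, 11 and 10 calls in all, and without ob/ob-Veh replicate 1 or 2 the eWAT Rosi effect gave 8 and 9. In iWAT the counts for the ob/ob effect, the Rosi effect and ob/ob-Rosi against WT-Veh were 15, 12 and 3 without WT-Veh replicate 1 and 11, 12 and 3 without WT-Veh replicate 2. Without either ob/ob-Veh library they were 0, 0 and 0, and without either ob/ob-Rosi library 3, 2 and 0. A member was tested only where its UMIs passed a filter on low counts: Plin1, Plin4 and Cidec were not tested in eWAT DC, NKT, BC and mesothelial cells, and Abhd5, tested in 6 eWAT and 4 iWAT classes, was called in none.

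**Figure D1:**
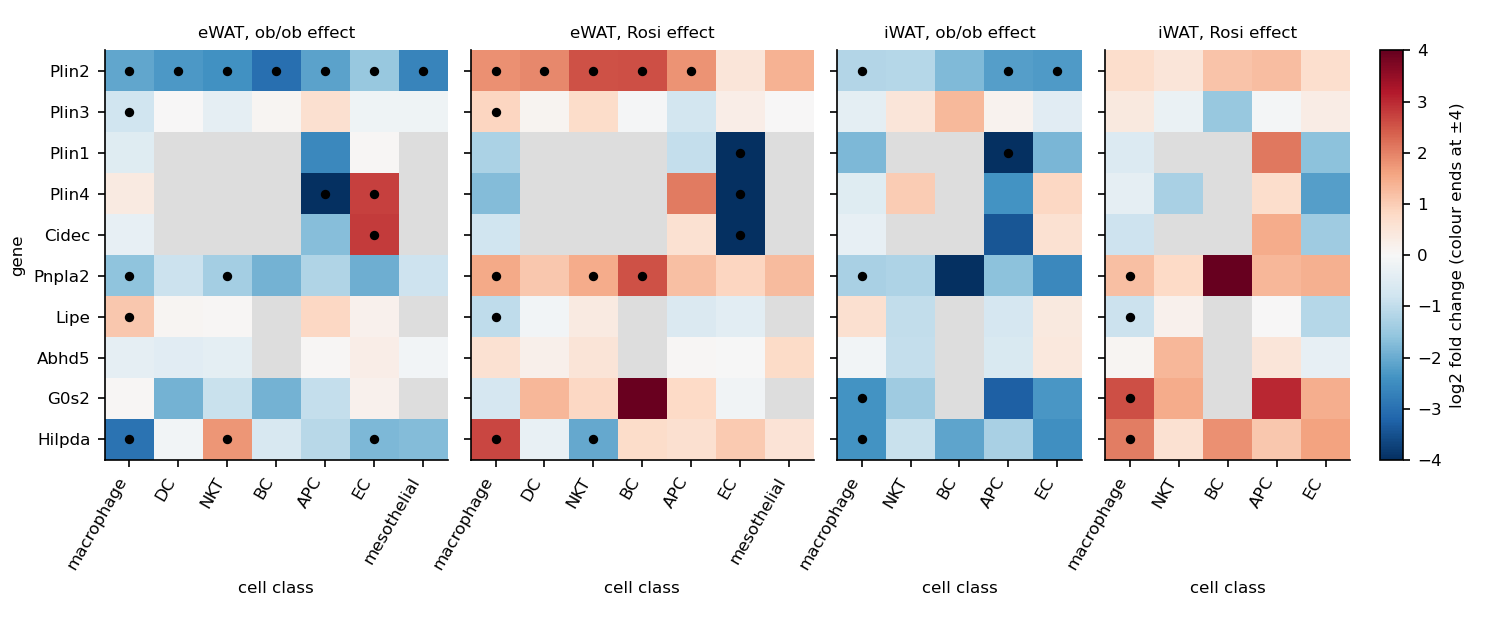
Log2 fold change of each member (vertical axis) in each broad cell class (horizontal axis) for the ob/ob effect and the Rosi effect in eWAT and iWAT. Red is higher and blue lower in the first-named group, grey was not tested, and a black dot marks a call (17, 15, 7 and 4 dots from left to right). The Plin2 line is blue in each class for the ob/ob effect and carries 7 dots in eWAT.

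Plin2 was called lower in ob/ob-Veh than in WT-Veh in all 7 eWAT classes tested, and called higher in ob/ob-Rosi than in ob/ob-Veh in 5 of them. Macrophages held 2532 and 2120.0 CPM in the WT-Veh libraries, 764 and 491 in the ob/ob-Veh libraries, and 1568 and 2176 in the ob/ob-Rosi libraries. Both ob/ob-Veh libraries lay below the other 4. The ob/ob effect in macrophages fell by 2.08 ± 0.33 (SE) on the log2 scale (adjusted p = 0.00185), and the Rosi effect was 1.81 ± 0.32 (adjusted p = 0.00255). Each of these calls held without any 1 library.

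In APC, Plin2 stood at 587 and 508 CPM in WT-Veh, 124 and 135 in ob/ob-Veh, and 278 and 585 in ob/ob-Rosi. The ob/ob effect was -2.15 ± 0.37 (adjusted p = 0.00691), while the Rosi effect came to 1.79 ± 0.36 (adjusted p = 0.0145), and here too the ob/ob-Veh libraries were the lowest. The Rosi call was lost without ob/ob-Rosi replicate 2 or either ob/ob-Veh library, and the ob/ob call without WT-Veh replicate 1, with adjusted p of at most 0.0780. Without ob/ob-Rosi replicate 2 the Rosi effect was 1.14. In EC, Plin2 went from 1531 and 1398 CPM to 639 and 460.0 CPM in ob/ob-Veh (log2 -1.51 ± 0.29, adjusted p = 0.0169), with 579 and 891 CPM in ob/ob-Rosi. That Rosi effect, 0.48 ± 0.29, did not pass (adjusted p = 0.408), and the ob/ob call was lost without either WT-Veh library or ob/ob-Veh replicate 2 (adjusted p up to 0.150). The Rosi effect on Plin2 was smaller in EC than in APC by 1.18 ± 0.23 and smaller than in macrophages by 1.37 ± 0.21 (adjusted p = 0.00448 and 0.00077). Mesothelial cells held 756 and 323 CPM, 96.5 and 90.9 CPM, and 204 and 252 CPM, and their ob/ob effect was -2.63 ± 0.39 (adjusted p = 0.00626), or -1.79 without WT-Veh replicate 1. The EC call was also lost with doublets removed by Scrublet, where the effect was -1.42 (adjusted p = 0.0578).

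Macrophage RNA and the make-up of APC moved with these values. Here and below, the summed macrophage markers are the 3 C1q genes, which macrophages make. They stood at 606 to 1143 CPM in APC of WT-Veh, 137 to 196 in ob/ob-Veh and 709 to 831 in ob/ob-Rosi. The summed LAM markers stood at 3085 to 3279, 1009 to 1161 and 3236 to 3987 CPM. Per 100 UMIs of the same 3 C1q genes, Plin2 in APC was 51.3 and 83.8 UMIs in WT-Veh, 90.6 and 69.1 in ob/ob-Veh, and 39.3 and 70.4 in ob/ob-Rosi. In EC the ratio was 69.0 and 84.2, 77.3 and 87.0, and 24.3 and 40.3 UMIs, and in mesothelial cells 43.4 and 32.6, 47.3 and 45.5, and 22.6 and 30.6 UMIs. On this ratio ob/ob-Veh overlapped WT-Veh in APC and EC and lay above it in mesothelial cells. In macrophages the ratio was 30.1 and 19.2, 8.97 and 4.53, and 17.4 and 17.2 UMIs, below that of the other 3 classes in each library. Progenitors made up 5.63 and 7.39% of eWAT APC in WT-Veh, 35.8 and 20.6% in ob/ob-Veh, and 8.66 and 2.48% in ob/ob-Rosi. The part of free macrophage RNA and of the progenitor share in the Plin2 values was not tested.

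Immune cells that are not known for storing fat showed Plin2 differences of like size. NKT held 676 and 513 CPM in WT-Veh, 126 and 126 in ob/ob-Veh, and 623 and 749.6 in ob/ob-Rosi, an ob/ob effect of -2.42 ± 0.36 (adjusted p = 0.0015), while the Rosi effect came to 2.55 ± 0.36 (adjusted p = 0.00118). In BC the ob/ob effect was -3.02 ± 0.42 (adjusted p = 0.000942), while the Rosi effect came to 2.59 ± 0.43 (adjusted p = 0.00424). DC gave -2.30 ± 0.33 (adjusted p = 0.00131) and 1.93 ± 0.33 (adjusted p = 0.00755, lost without either ob/ob-Veh library). Macrophage RNA moved with these values too. In NKT, the summed LAM markers stood at 3463 and 2745 CPM in WT-Veh, 321 and 400.2 in ob/ob-Veh, and 4544 and 4409 in ob/ob-Rosi, and the summed macrophage markers at 3009 and 1704, 639 and 981, and 3274 and 2909 CPM. Per 100 C1q UMIs, Plin2 in NKT was 22.5 and 30.1, 19.8 and 12.8, and 19.0 and 25.8 UMIs, in BC 22.5 and 32.4, 11.7 and 14.5, and 52.8 and 16.0 UMIs, and in DC 38.2 and 46.0, 50.5 and 28.3, and 24.4 and 37.9 UMIs. On this ratio ob/ob-Veh overlapped ob/ob-Rosi and lay below WT-Veh in NKT, was the lowest of the 3 groups in BC, and overlapped both in DC. The part of free macrophage RNA in the Plin2 values of these classes was not tested. Without ob/ob-Veh replicate 2 the ob/ob call in NKT was lost (adjusted p = 0.0578), and so was the Rosi call in BC with cells thinned to 700 UMIs (adjusted p = 0.176) and that in DC at Leiden resolution 0.5 (adjusted p = 0.0506).

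**Figure D2:**
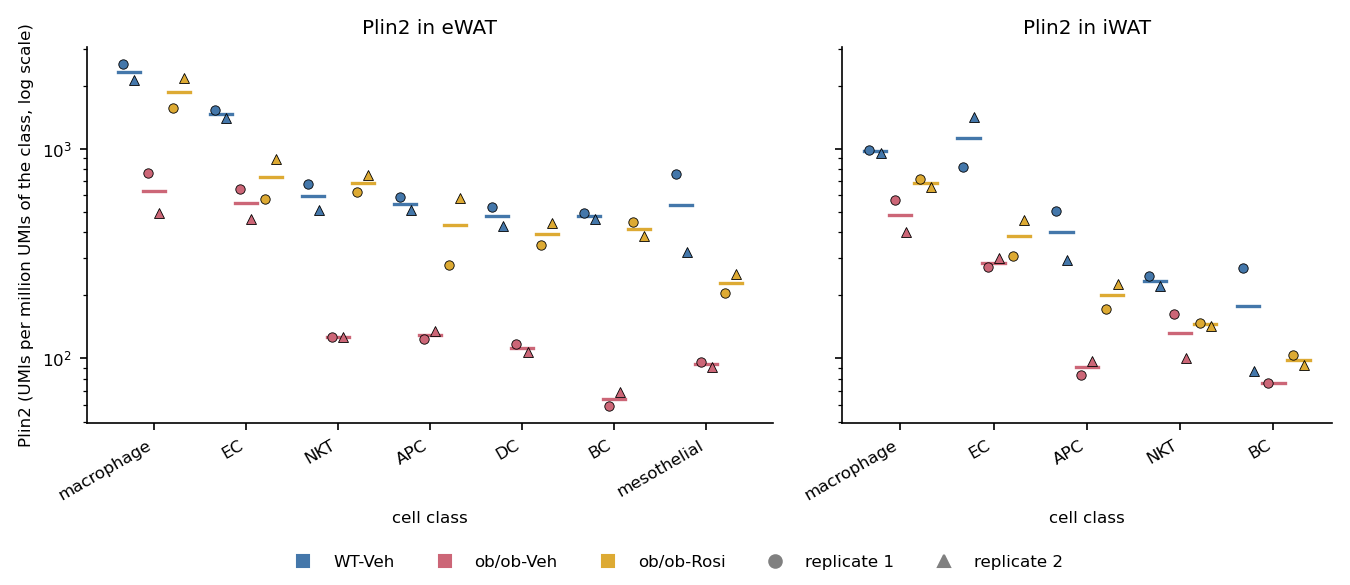
Plin2 in CPM (log axis) in each broad class of eWAT (left) and iWAT (right). Each point is 1 library (circle replicate 1, triangle replicate 2), the line is the mean of the group, and in eWAT the red ob/ob-Veh points lie below both blue WT-Veh points in each class.

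In iWAT Plin2 was called lower in ob/ob-Veh in 3 of 5 classes, and its ob/ob effect ran from -2.25 to -1.15 over the 5. APC held 504 and 295 CPM in WT-Veh, 83.6 and 97.6 in ob/ob-Veh and 173 and 227 in ob/ob-Rosi, and the 3 groups did not overlap (ob/ob effect -2.19 ± 0.32, adjusted p = 0.0450). EC held 820.4 and 1421, 272 and 301, and 309 and 455 CPM (ob/ob effect -2.25 ± 0.40, adjusted p = 0.0453), and macrophages 989 and 955, 569 and 401, and 715 and 658 CPM (ob/ob effect -1.17 ± 0.30, adjusted p = 0.0436). These 3 calls were each lost when any ob/ob-Veh or ob/ob-Rosi library was left out, and that in macrophages also without WT-Veh replicate 2, with adjusted p up to 0.618. The APC call was also lost at Leiden resolution 2, and those in EC and macrophages with cells thinned to 700 UMIs (adjusted p up to 0.134). The Rosi effect on Plin2 was positive in each of the 5 iWAT classes, from 0.49 to 1.23, and passed in none. In iWAT BC, only 1 ob/ob-Veh library had the 20 cells required. Some other values moved with Plin2 here too. The summed LAM markers stood at 1443 to 1522 CPM in iWAT APC of WT-Veh, 794 to 1013 in ob/ob-Veh and 1672 to 1940 in ob/ob-Rosi, and at 1063 to 1945, 285 to 347 and 1076 to 1625 CPM in iWAT EC. The summed macrophage markers in iWAT APC were highest in ob/ob-Veh, at 269 to 418, 459 to 584 and 363 to 396 CPM. So were the PVM markers there, at 237 to 481, 772 to 842 and 295 to 364 CPM. In iWAT EC the macrophage markers stood at 1181 to 1204, 644 to 1048 and 786 to 2183 CPM. Progenitors made up 36.4 and 66.3% of iWAT APC in WT-Veh, 84.1 and 71.5% in ob/ob-Veh, and 34.3 and 51.8% in ob/ob-Rosi. Per 100 C1q UMIs, Plin2 in iWAT APC was 121 and 110 UMIs, 14.3 and 21.3, and 47.6 and 57.3, lowest in ob/ob-Veh. In iWAT EC that ratio was 68.1 and 120, 26.0 and 46.6, and 39.3 and 20.8 UMIs. At Leiden resolution 0.5, 1 iWAT EC cluster held 201 and 902 cells of WT-Veh and at most 9 of any other library. The other EC cluster held 117 and 253 cells of WT-Veh, 110 and 627 of ob/ob-Veh, and 2121 and 2223 of ob/ob-Rosi. The part of free RNA, of the progenitor share and of the EC clusters in the iWAT values was not tested.

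Hilpda, which binds and inhibits adipose triglyceride lipase, moved in opposite directions in eWAT macrophages and eWAT NKT. Macrophages held 393 and 227 CPM in WT-Veh, 47.0 and 45.2 in ob/ob-Veh, and 319.5 and 183 in ob/ob-Rosi. The ob/ob-Veh libraries were the lowest by a wide margin, with an ob/ob effect of -2.96 ± 0.35 (adjusted p = 0.000515), while the Rosi effect came to 2.67 ± 0.35 (adjusted p = 0.000576), and both calls held without any 1 library. NKT held 243 and 128 CPM in WT-Veh, 767 and 645 in ob/ob-Veh, and 133 and 179 in ob/ob-Rosi. There the ob/ob-Veh libraries were the highest, with an ob/ob effect of 1.75 ± 0.39 (adjusted p = 0.0196), while the Rosi effect came to -2.05 ± 0.40 (adjusted p = 0.00983). The NKT ob/ob call was lost without WT-Veh replicate 2 or either ob/ob-Veh library (adjusted p up to 0.2004) and the Rosi call without ob/ob-Veh replicate 1 (adjusted p = 0.108). The difference between the classes was itself tested, in a comparison added after the values were seen. NKT exceeded macrophages by 4.57 ± 0.33 in the ob/ob effect (adjusted p = 3.54e-11) and lay below them by 4.49 in the Rosi effect (adjusted p = 6.59e-11), where 6.06% of all genes passed. The macrophage marker sums of NKT, given above, were lowest in ob/ob-Veh, while the immediate early genes of NKT were highest there, at 4392 to 5400 CPM in WT-Veh, 10507 to 12263 in ob/ob-Veh and 5403 to 5749 in ob/ob-Rosi. NKT pooled 2 eWAT clusters, and the one led by the T cell genes Trbc2 and Cd3g held 262 and 452 cells of WT-Veh, 398 and 314 of ob/ob-Veh, and 169 and 311 of ob/ob-Rosi, against 182 and 178, 195 and 153, and 78 and 313 in the one led by Gzma and Nkg7. The part of these in the NKT values of Hilpda was not tested.

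**Figure D3:**
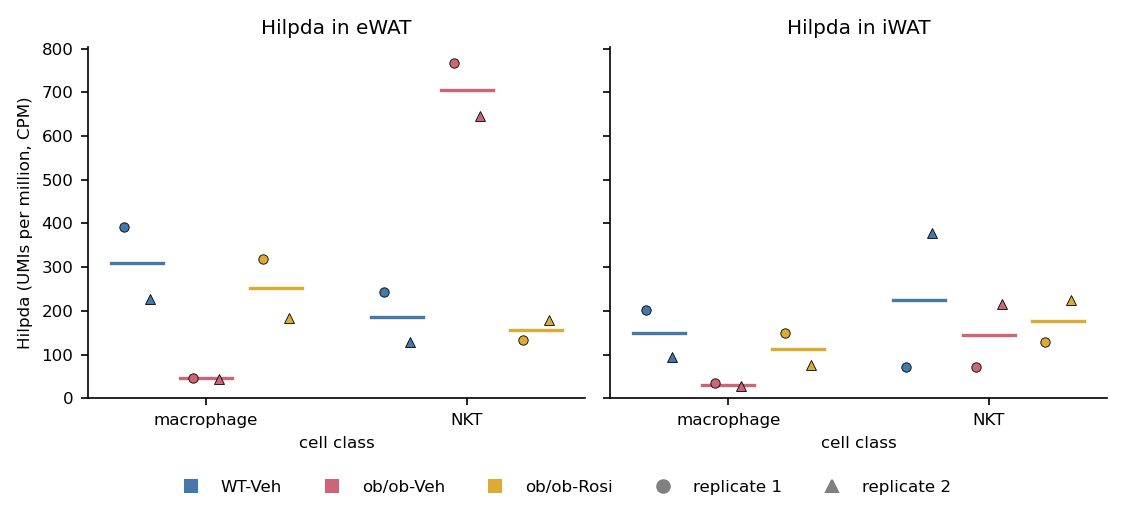
Hilpda in CPM in macrophages and NKT of eWAT (left) and iWAT (right). Points are single libraries and lines are group means. In eWAT the red ob/ob-Veh points are the lowest in macrophages (47.0 and 45.2 CPM) and the highest in NKT (767 and 645 CPM), while in iWAT NKT the groups overlap.

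In iWAT macrophages Hilpda stood at 202 and 95.3 CPM, 33.8 and 28.9 CPM, and 150.3 and 77.1 CPM, an ob/ob effect of -2.40 ± 0.43 (adjusted p = 0.0172), while the Rosi effect came to 2.05 ± 0.43 (adjusted p = 0.0171). These calls were lost without either ob/ob-Veh library, and the Rosi call also without ob/ob-Rosi replicate 1 (adjusted p up to 0.163) and with cells thinned to 700 UMIs (adjusted p = 0.0563). iWAT NKT ranged from 71.4 to 377 CPM with overlapping groups, and neither effect passed (-0.89 ± 0.74 and 0.60 ± 0.74). In iWAT NKT, Hilpda was among the leading genes of a cluster led by Areg, which held 60 and 391 cells of WT-Veh, 11 and 15 of ob/ob-Veh, and 58 and 405 of ob/ob-Rosi. In eWAT EC, Hilpda went from 142 and 76.0 CPM to 43.2 and 24.7 CPM in ob/ob-Veh (log2 -1.79 ± 0.40, adjusted p = 0.0297), with 82.0 and 50.9 CPM in ob/ob-Rosi. That call was lost without WT-Veh replicate 1 or ob/ob-Veh replicate 2 (adjusted p up to 0.1997), and with Scrublet doublets removed, where the effect was -1.28 (adjusted p = 0.257). The summed LAM markers in eWAT EC stood at 2851 to 3323 CPM in WT-Veh, 336 to 396 in ob/ob-Veh and 3430 to 3535 in ob/ob-Rosi, and the part of free macrophage RNA in the EC values of Hilpda was not tested.

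Of a list of 12 genes that respond to low oxygen, 11 were tested in eWAT macrophages, and 4 were lower and 0 higher in ob/ob-Veh, where 31.5% of all genes were called in either direction. Among the 4 were Ldha (lactate dehydrogenase A) at -1.74 ± 0.30, Car9 (a carbonic anhydrase) at -1.90 ± 0.35 and Slc2a1 (the glucose transporter GLUT1) at -1.43 ± 0.30. With rosiglitazone, 5 were higher and 1, Adm (adrenomedullin), was lower, against 34.1% of all genes. In eWAT NKT, Vegfa (vascular endothelial growth factor A) moved as Hilpda did, with an ob/ob effect of 1.37 ± 0.31 (adjusted p = 0.0237), while the Rosi effect came to -1.87 ± 0.34 (adjusted p = 0.0073), and Adm had a Rosi effect of -2.67 ± 0.66 there (adjusted p = 0.0337). The other 8 genes tested did not pass for the ob/ob effect, and 7 of the 9 not for the Rosi effect. Over all eWAT classes the list's median log2 change was -0.03 for the ob/ob effect. The part of low oxygen in these values was not tested.

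Pnpla2, the lipase that starts lipolysis, was called in macrophages of both depots in both directions. eWAT macrophages held 136 and 194 CPM in WT-Veh, 66.5 and 57.4 in ob/ob-Veh, and 91.9 and 208 in ob/ob-Rosi, with an ob/ob effect of -1.60 ± 0.37 (adjusted p = 0.00905), while the Rosi effect came to 1.53 ± 0.36 (adjusted p = 0.0101). iWAT macrophages held 95.1 and 129 CPM, 57.3 and 47.0 CPM, and 82.3 and 127 CPM, with an ob/ob effect of -1.29 ± 0.32 (adjusted p = 0.0414) and a Rosi effect of 1.21 ± 0.32 (adjusted p = 0.0352). In both depots the ob/ob-Veh libraries were the lowest, and the WT-Veh and ob/ob-Rosi libraries overlapped. In eWAT NKT it was lower in ob/ob-Veh (log2 -1.37 ± 0.34, adjusted p = 0.0332) and higher again with rosiglitazone (1.496 ± 0.342, adjusted p = 0.0235), and in eWAT BC the Rosi effect was 2.56 ± 0.58 (adjusted p = 0.0470). EC, the class with the highest level, held 731 and 1603 CPM, 235 and 412 CPM, and 235 and 884 CPM in eWAT, where replicate 2 exceeded replicate 1 in each group, and neither effect passed (adjusted p = 0.0623 and 0.404). Each Pnpla2 call was lost without ob/ob-Veh replicate 2, and all but those in eWAT macrophages without ob/ob-Veh replicate 1 too. The eWAT and iWAT macrophage calls for the ob/ob effect were also lost without WT-Veh replicate 2, that in NKT without either WT-Veh library, and each Rosi call without ob/ob-Rosi replicate 2 (adjusted p up to 0.708). Without that library the eWAT Rosi effects were 0.78 in macrophages, 0.80 in NKT and 1.76 in BC. The BC call was also lost with DESeq2, at Leiden resolution 2, with Scrublet doublets removed and with a replicate block (adjusted p up to 0.154). Both NKT calls were lost with Scrublet doublets removed, at -1.25 and 1.42, and the Rosi call there with cells thinned to 700 UMIs, at 1.47 (adjusted p up to 0.0772). Under these alternatives the BC effect stayed between 2.43 and 2.62. The summed LAM markers moved with Pnpla2 in both classes, in NKT as given above and in BC at 2425 to 2470 CPM in WT-Veh, 245 to 535 in ob/ob-Veh and 2642 to 3223 in ob/ob-Rosi, and the part of free macrophage RNA was not tested.

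Lipe, hormone-sensitive lipase, moved the other way in macrophages. eWAT macrophages held 10.6 and 10.4 CPM in WT-Veh, 27.4 and 23.9 in ob/ob-Veh, and 9.53 and 11.9 in ob/ob-Rosi, and the ob/ob-Veh libraries stood clear of the rest. The ob/ob effect was 1.09 ± 0.25 (adjusted p = 0.00946), while the Rosi effect came to -1.02 ± 0.25 (adjusted p = 0.0111). In iWAT macrophages, at 19.4 and 20.7 CPM, 35.8 and 35.0 CPM, and 16.4 and 17.5 CPM, the Rosi effect passed at -0.85 ± 0.23 (adjusted p = 0.0359) and the ob/ob effect, 0.64 ± 0.23, did not (adjusted p = 0.107). The eWAT ob/ob call was lost without either WT-Veh library or ob/ob-Veh replicate 1, the eWAT Rosi call without ob/ob-Veh replicate 1, and the iWAT Rosi call without any ob/ob-Veh or ob/ob-Rosi library (adjusted p up to 0.195). With cells thinned to 700 UMIs both Rosi calls were lost, and without the filter on low counts the iWAT one was (adjusted p up to 0.199). The 9 summed adipocyte markers moved with Lipe in eWAT macrophages, at 3.03 and 5.57 CPM in WT-Veh, 10.9 and 11.6 in ob/ob-Veh, and 4.35 and 5.48 in ob/ob-Rosi, and the part of adipocyte RNA was not tested. In EC, where Lipe was highest, no contrast passed in either depot. Abhd5 ranged from 21.6 to 30.2 CPM in eWAT macrophages, and over all classes and depots its log2 changes for the ob/ob effect ran from -0.95 to 0.42 without a call.

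The effects on G0s2 in macrophages taken as 1 class differed between the depots. In iWAT macrophages it stood at 10.1 and 8.54 CPM in WT-Veh, 1.58 and 2.48 in ob/ob-Veh, and 12.9 and 7.80 in ob/ob-Rosi, with the ob/ob-Veh libraries lowest (ob/ob effect -2.38 ± 0.41, adjusted p = 0.0153; Rosi effect 2.57 ± 0.40, adjusted p = 0.00855). In eWAT macrophages it stood at 13.8 and 12.2 CPM, 15.4 and 15.7 CPM, and 7.26 and 9.32 CPM, with effects of 0.06 ± 0.26 and -0.66 ± 0.26 that did not pass. The iWAT ob/ob-Veh levels rest on 9 and 11 UMIs. Of the 226 and 166 UMIs in iWAT ob/ob-Rosi macrophages, 142 and 43 lay in 300 and 189 non-perivascular macrophages. The part of the subclasses in this depot difference was not tested. Both iWAT calls were lost without either ob/ob-Veh library (adjusted p up to 0.161). With cells thinned to 700 UMIs the iWAT ob/ob effect was -1.44 and its call was lost (adjusted p = 0.146). In APC, where G0s2 was highest, iWAT held 65.3 and 170 CPM, 8.95 and 17.8 CPM, and 65.4 and 134 CPM, and although the ob/ob-Veh libraries lay below the other 4, neither effect passed (-3.27 ± 0.59, adjusted p = 0.0773, and 3.01 ± 0.58, adjusted p = 0.0632).

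**Figure D4:**
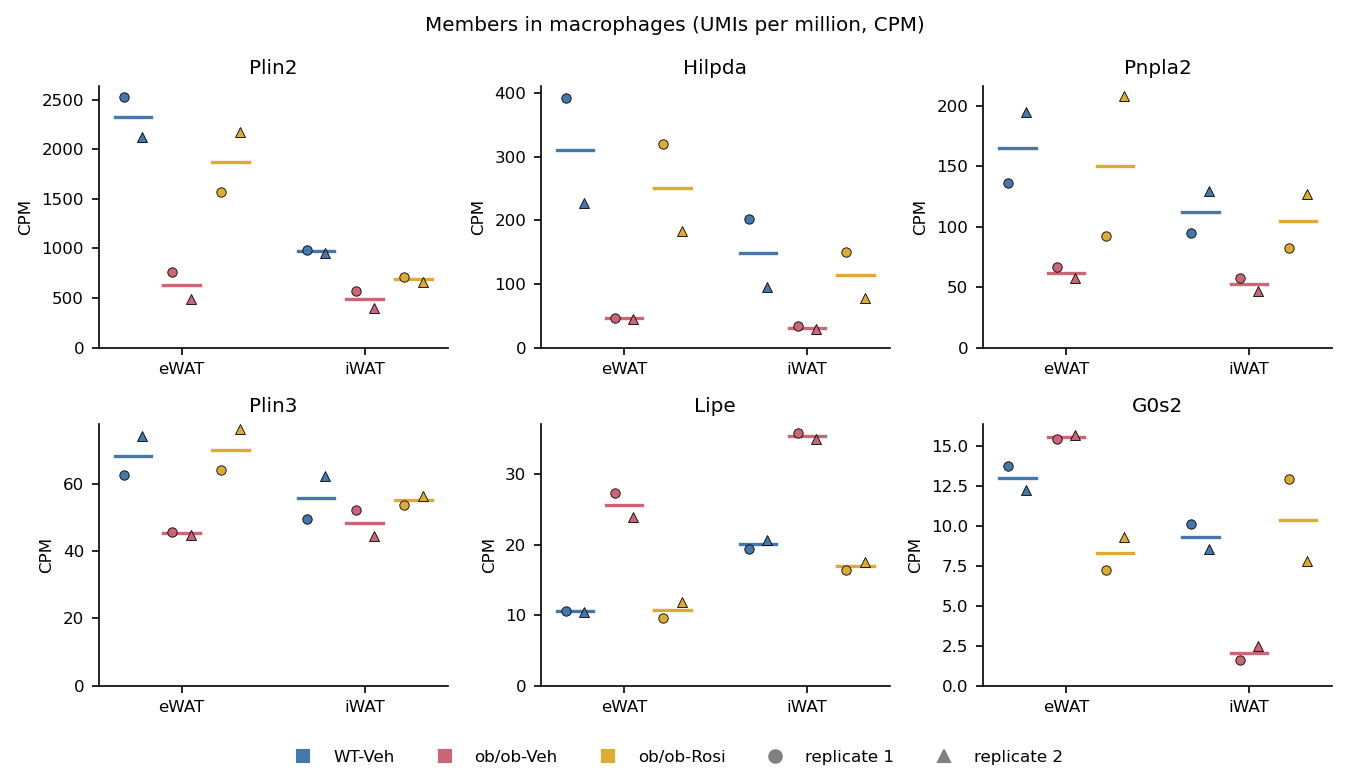
Plin2, Hilpda, Pnpla2, Plin3, Lipe and G0s2 in macrophages of eWAT and iWAT, in CPM on axes that start at 0. Points are single libraries and lines are group means. The red ob/ob-Veh points lie lowest for Plin2, Hilpda and Pnpla2 in both depots, highest for Lipe in both depots, and lowest for G0s2 in iWAT, where they are at 1.58 and 2.48 CPM.

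Macrophage values came with a change in which macrophages were present. The background of calls in macrophages was high, at 31.5% of genes for the ob/ob effect and 34.1% for the Rosi effect in eWAT, and 11.1% and 19.6% in iWAT. Of the 10 members, 5 were called for the eWAT ob/ob effect and the same number for the Rosi effect, and in iWAT 4 and 4. LAM made up 47.6 and 52.4% of eWAT macrophages in WT-Veh, 1.53 and 3.59% in ob/ob-Veh, and 48.0 and 60.01% in ob/ob-Rosi. They were 20.4 and 12.9%, 0.943 and 0.372%, and 21.7 and 12.6% of iWAT macrophages. Immediate early genes, which tissue handling is known to induce, also moved with the groups. Their sum in eWAT macrophages was 7730 to 10777 CPM in WT-Veh, 24287 to 30765 in ob/ob-Veh and 7488 to 7945 in ob/ob-Rosi. Of 98 eWAT pairs of such a gene and a class, 25 were higher in ob/ob-Veh and 29 lower with rosiglitazone. In iWAT 2 of 69 pairs passed for the ob/ob effect, 1 higher and 1 lower, and 4 for the Rosi effect, 1 higher and 3 lower. The part of the LAM and PVM shares and of these genes in the macrophage values was not tested. Plin3 was called only in eWAT macrophages among the broad classes tested, at 62.7 and 74.3 CPM, 45.8 and 44.9 CPM, and 64.1 and 76.3 CPM (ob/ob effect -0.79 ± 0.22, adjusted p = 0.0218, lost without any WT-Veh or ob/ob-Veh library and with cells thinned to 700 UMIs; Rosi effect 0.87 ± 0.22, adjusted p = 0.0132, lost without ob/ob-Rosi replicate 2 or either ob/ob-Veh library, with adjusted p up to 0.146). In APC the Plin3 effects were 0.64 ± 0.29 and -0.73 ± 0.29 and did not pass, and the difference between macrophages and APC did, at -1.56 ± 0.24 for the ob/ob effect (adjusted p = 0.00139) and 1.70 ± 0.23 for the Rosi effect (adjusted p = 0.000604).

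Plin2 and Hilpda were also lower in ob/ob-Veh within eWAT LAM. There, Plin2 stood at 3030 and 2694 CPM, 1371 and 1128 CPM, and 1865 and 2476 CPM, and the ob/ob-Veh libraries, with 32 and 72 LAM, were lowest (ob/ob effect -1.43 ± 0.28, adjusted p = 0.00447; Rosi effect 1.07 ± 0.28, adjusted p = 0.0320). Hilpda in LAM stood at 489 and 310 CPM, 170.1 and 196 CPM, and 409 and 219 CPM, with an ob/ob effect of -1.35 ± 0.34 (adjusted p = 0.0254). The cells named LAM were not alike in the groups. Their summed LAM markers stood at 13493 to 14611 CPM in WT-Veh, 7501 to 8503 in ob/ob-Veh and 16377 to 17106 in ob/ob-Rosi, their PVM markers at 1400 to 1629, 2895 to 3497 and 2068 to 2082 CPM, and their immediate early genes at 5468 to 7609, 13425 to 13730 and 5971 to 6376 CPM. The part of these in the LAM values was not tested. The Rosi call of Plin2 in LAM was lost at Leiden resolution 0.5 (adjusted p = 0.0864). Perivascular macrophages (PVM) of the groups lay in different clusters. In eWAT, cluster 0 held 2291 and 860 PVM of WT-Veh and 68 and 36 of ob/ob-Veh, and cluster 24 held 7 and 6 against 1824 and 1805. In eWAT PVM, Plin2 was at 1030 and 819.6 CPM, 712 and 439.7 CPM, and 682 and 759.5 CPM, and neither effect passed (-0.78 ± 0.30, adjusted p = 0.147, and 0.44 ± 0.30). Hilpda in PVM did pass for the ob/ob effect, at -1.44 ± 0.33 (adjusted p = 0.0413), a call lost with Scrublet doublets removed, where the effect was -1.32 (adjusted p = 0.0573). The summed LAM markers in eWAT PVM stood at 3647 to 3991 CPM in WT-Veh, 760 to 1095 in ob/ob-Veh and 3608 to 5185 in ob/ob-Rosi, and the immediate early genes at 16624 to 20151, 25489 to 32941 and 17399 to 18112 CPM. iWAT PVM showed the G0s2 difference of iWAT macrophages, at -2.03 ± 0.45 (adjusted p = 0.0405) and 1.91 ± 0.44 (adjusted p = 0.0347), and their Plin2 effects were -0.35 ± 0.31 and -0.27 ± 0.31. With cells thinned to 700 UMIs both G0s2 calls in PVM were lost, at -1.22 (adjusted p = 0.353) and 1.44 (adjusted p = 0.170). Of iWAT PVM, cluster 19 held 2780 and 2085 cells of ob/ob-Veh and at most 59 of any other library, and their summed LAM markers stood at 1690 to 2107, 573 to 616 and 2358 to 2652 CPM. The part of these in the PVM values was not tested. Lipe, Pnpla2 and Plin3, though called in macrophages, were called in none of the macrophage subclasses tested. In eWAT PVM, Lipe stood at 18.4 and 11.4 CPM, 28.2 and 24.1 CPM, and 18.9 and 17.0 CPM. Its levels in eWAT LAM were 8.34 and 9.71, 9.45 and 15.6, and 6.92 and 9.99 CPM. Plin3 stood at 41.5 and 63.2, 44.2 and 42.9, and 43.5 and 54.1 CPM in eWAT PVM. In eWAT LAM it stood at 70.4 and 80.2, 52.0 and 78.0, and 71.4 and 80.9 CPM. Whether the effects in LAM differed from those in PVM was not tested.

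In eWAT, Plin2 was called in both APC subclasses, progenitors and preadipocytes. Progenitors held 394 and 277 CPM, 57.8 and 56.9 CPM, and 178 and 386 CPM (ob/ob effect -2.55 ± 0.34, adjusted p = 0.000557; Rosi effect 2.24 ± 0.34, adjusted p = 0.00168). Preadipocytes held 602 and 533 CPM, 192 and 175 CPM, and 289 and 590.0 CPM (-1.75 ± 0.35, adjusted p = 0.0124, and 1.37 ± 0.35, adjusted p = 0.0345). The summed macrophage markers in progenitors stood at 588 to 930 CPM in WT-Veh, 119 to 218 in ob/ob-Veh and 607 to 1385 in ob/ob-Rosi, and the LAM markers at 2466 to 2703, 797 to 1029 and 2607 to 3454 CPM. Per 100 C1q UMIs, Plin2 in progenitors was 42.4 and 47.1, 48.6 and 26.1, and 29.3 and 27.9 UMIs, so ob/ob-Veh overlapped WT-Veh. In preadipocytes the ratio was 51.9 and 87.7, 116 and 88.9, and 39.9 and 72.3 UMIs, highest in ob/ob-Veh. The preadipocytes also lay in different clusters, with 1776 and 1852 of ob/ob-Veh and at most 79 of any other library in cluster 13. The part of these in the Plin2 values was not tested. Pnpla2 passed in progenitors for the ob/ob effect (-1.42 ± 0.30, adjusted p = 0.0157), and the call was lost with cells thinned to 700 UMIs (adjusted p = 0.293). In iWAT preadipocytes the Plin2 ob/ob effect was -2.13 ± 0.36 (adjusted p = 0.0352, lost with cells thinned to 700 UMIs at 0.0521), and in iWAT progenitors, -0.63 ± 0.27, it did not pass (adjusted p = 0.301). In all, 15 of the 222 tests of a member in a subclass passed, 4 higher and 11 lower, against backgrounds of 3.12% in eWAT and 1.83% in iWAT. The count was 28 with DESeq2, 44 with a replicate block and 47 without the filter on low counts.

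The adipocyte genes Cidec, Plin4 and Plin1 stood at no more than 6.82 CPM in any library of eWAT macrophages, DC, NKT, BC and mesothelial cells. Plin4 was highest in iWAT preadipocytes, at 215 and 209 CPM in WT-Veh, 46.1 and 96.5 in ob/ob-Veh, and 59.3 and 55.4 in ob/ob-Rosi. The 9 summed adipocyte markers stood there at 48.6 to 50.6, 0.839 to 2.47 and 5.54 to 8.05 CPM. The part of adipocyte RNA in these Plin4 levels was not tested. In eWAT EC, Cidec stood at 9.79 and 15.3 CPM in WT-Veh, 102 and 94.1 in ob/ob-Veh, and 5.94 and 5.25 in ob/ob-Rosi, with an ob/ob effect of 2.78 ± 0.30 (adjusted p = 0.000411), while the Rosi effect came to -4.08 ± 0.31 (adjusted p = 2.77e-05), held without any 1 library. Plin4 in eWAT EC stood at 3.26 and 5.58 CPM, 41.8 and 27.6 CPM, and 2.97 and 1.41 CPM (2.72 ± 0.45, adjusted p = 0.00635, and -4.08 ± 0.47, adjusted p = 0.000724). The ob/ob call for Plin4 was lost without either WT-Veh library (adjusted p up to 0.0565). Adipocyte RNA moved with them: Adipoq in the same cells stood at 6.53 and 2.44 CPM, 73.9 and 44.8 CPM, and 0.594 and 2.22 CPM, and the 9 summed adipocyte markers at 14.1 and 9.76, 238 and 199, and 11.9 and 13.1 CPM.

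Of the eWAT EC of ob/ob-Veh, 51 of 243 and 92 of 571 cells (21.0 and 16.1%) held an Adipoq UMI, against at most 1.28% in the other eWAT libraries. When those cells were removed, an alternative chosen after the values were seen, Cidec was left at 4.43 and 14.2 CPM, 61.3 and 49.8 CPM, and 4.76 and 4.91 CPM. Its ob/ob effect was then 2.27 ± 0.40 (adjusted p = 0.00924) and its Rosi effect -3.42 ± 0.41 (adjusted p = 0.000971), Plin4 gave 2.16 ± 0.51 (adjusted p = 0.0381) and -3.39 ± 0.53 (adjusted p = 0.00508), and 3.43% of all genes passed over both effects. Per 100 Adipoq UMIs, Cidec in eWAT EC with all cells was 150 and 629 UMIs in WT-Veh, 138 and 210 in ob/ob-Veh, and 1000 and 236 in ob/ob-Rosi, and Plin4 was 50 and 229, 56.6 and 61.5, and 500 and 63.6 UMIs. ob/ob-Veh was not the highest on this ratio, which rests on 6 and 7 Adipoq UMIs in WT-Veh and 1 and 11 in ob/ob-Rosi. The EC call of Hilpda was not kept under this removal, though its effect, -1.75 ± 0.46, was near that before (adjusted p = 0.0557), and that of Plin2 was (-1.58 ± 0.29, adjusted p = 0.0119). What is left of adipocyte RNA in EC without an Adipoq UMI was not tested.

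Plin1, the perilipin of the adipocyte's large droplet, was at 17.4 and 10.5 CPM in WT-Veh and 15.3 and 13.8 in ob/ob-Veh eWAT EC, whereas both ob/ob-Rosi libraries together held 1 UMI of 6638667. Against the 70 UMIs of 4919718 in ob/ob-Veh this is 94.5-fold lower, with an exact 95% interval for counting error of 16.4 to 3784, and against the 46 UMIs of WT-Veh 80.6-fold lower (13.8 to 3254). Both contrasts passed (adjusted p = 0.000891 and 0.0122), the second being the single eWAT call between ob/ob-Rosi and WT-Veh, and it was lost without WT-Veh replicate 1 (adjusted p = 0.0696). Without the cells holding an Adipoq UMI both contrasts passed too (adjusted p = 0.00508 and 0.0118). Per 100 Adipoq UMIs, Plin1 in eWAT EC was 267 and 429 UMIs in WT-Veh, 20.8 and 30.8 in ob/ob-Veh, and 0 and 9.09 in ob/ob-Rosi, with the few Adipoq UMIs named above. In iWAT EC, Plin1 stood at 14.0 and 15.2 CPM, 9.62 and 3.42 CPM, and 1.18 and 1.47 CPM, the lowest again in ob/ob-Rosi, and no contrast passed (adjusted p = 0.0680 for ob/ob-Rosi against WT-Veh). Cidec in iWAT EC ran from 22.0 and 23.2 CPM over 64.1 and 29.0 CPM to 11.04 and 15.2 CPM without a call.

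**Figure D5:**
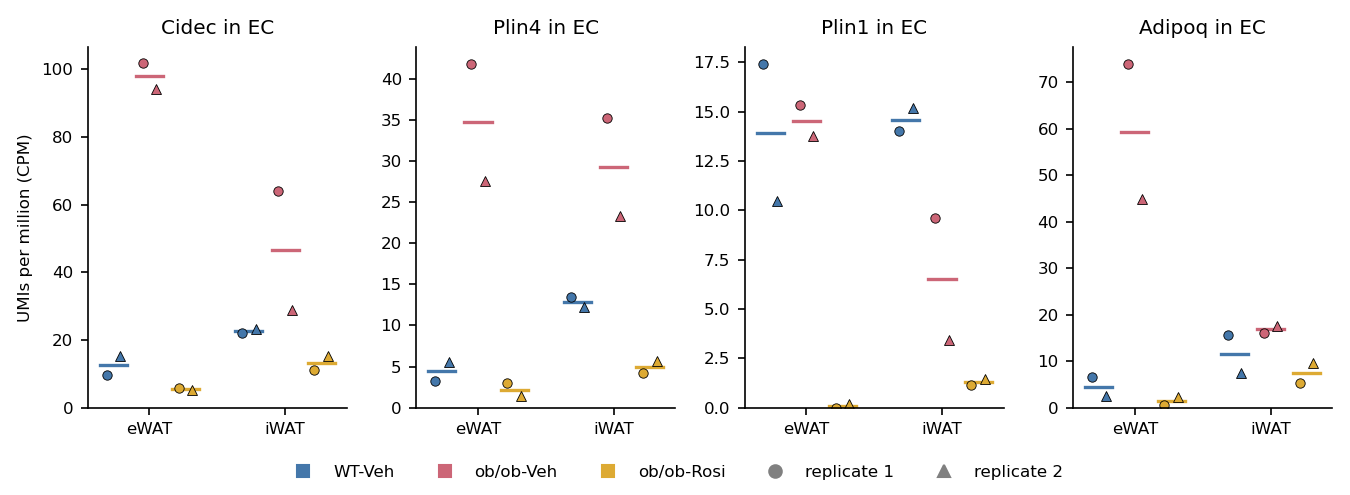
Cidec, Plin4, Plin1 and, for comparison, Adipoq in EC of eWAT and iWAT, in CPM on axes that start at 0. Points are single libraries and lines are group means. In eWAT the red ob/ob-Veh points stand highest for Cidec, Plin4 and Adipoq, and the yellow ob/ob-Rosi points for Plin1 lie at or next to 0.

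In eWAT APC, Plin4 went the other way from EC in the ob/ob effect, and Cidec and Plin1 passed for no contrast. It stood at 6.18 and 44.4 CPM in WT-Veh, 0.679 and 2.49 in ob/ob-Veh, and 5.79 and 6.33 in ob/ob-Rosi, and the ob/ob effect was -4.11 ± 0.78 (adjusted p = 0.0112), lost without WT-Veh replicate 2, where the effect was -2.17 (adjusted p = 0.106). The WT-Veh libraries differed from each other more than replicate 1 differed from ob/ob-Rosi. EC exceeded APC in the Plin4 ob/ob effect by 7.15 ± 0.64 (adjusted p = 2.76e-06) and in that of Cidec by 4.45 ± 0.57 (adjusted p = 0.000111), with the reverse in the Rosi effect (-6.15 ± 0.67 and -4.54 ± 0.67). The Plin4 ob/ob difference includes WT-Veh replicate 2, which held 370 Plin4 UMIs in APC against 40 in replicate 1, and it was not run without that library. Plin1 in iWAT APC fell from 23.6 and 5.79 CPM to 0.0570 and 0.249 CPM in ob/ob-Veh, 4 UMIs against 136, or 58.4-fold (counting interval 22.3 to 217; adjusted p = 0.0430), and held 0.680 and 0.519 CPM in ob/ob-Rosi. That call was lost without any ob/ob-Veh or ob/ob-Rosi library (adjusted p up to 0.583) and at Leiden resolution 2 (adjusted p = 0.0521). In iWAT preadipocytes Plin1 was also lower in ob/ob-Rosi than in WT-Veh (-4.71 ± 0.54, adjusted p = 0.0261). The 9 adipocyte markers stood at 33.9 and 19.1, 0.456 and 2.32, and 6.88 and 5.15 CPM in iWAT APC. In eWAT APC they stood at 10.3 to 19.6 CPM in WT-Veh, 2.98 to 6.08 in ob/ob-Veh and 3.95 to 7.09 in ob/ob-Rosi. Their part in the APC differences of either depot was not tested. Over the pairs of APC, EC and macrophages in both depots and 3 contrasts, 28 of 180 member tests of a difference between classes passed, against a background of 4.78%.

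The depots were compared directly. Of 126 tests of a depot difference in an effect, 2 passed (background 0.165%), both for G0s2 in macrophages: iWAT lay below eWAT by 2.41 ± 0.47 in the ob/ob effect (log2 -2.41, adjusted p = 0.0302) and above it by 3.19 ± 0.46 in the Rosi effect (adjusted p = 0.0488). Of the same number of tests between depots within 1 group, 8 passed (background 2.43%). With a replicate block the counts were 4 and 17, with DESeq2 5 and 17. The labels do not say whether same-numbered libraries of the 2 depots share a mouse, and the fit takes them as independent. Plin2 in macrophages was lower in iWAT than in eWAT in WT-Veh (-1.38 ± 0.33, adjusted p = 0.0352) and in ob/ob-Rosi (-1.59 ± 0.33, adjusted p = 0.0231), and it was lower in iWAT NKT of ob/ob-Rosi (-2.21 ± 0.36, adjusted p = 0.0335) and in iWAT BC of WT-Veh (-1.77 ± 0.46, adjusted p = 0.0491). In WT-Veh and ob/ob-Rosi the LAM share of macrophages, given above, was also lower in iWAT. The summed LAM markers stood at 4409 to 4544 CPM in eWAT NKT of ob/ob-Rosi and 1020 to 1312 in iWAT. In BC of WT-Veh they stood at 2425 to 2470 CPM in eWAT and 491 to 1149 in iWAT. The part of these in the depot differences of Plin2 was not tested. In ob/ob-Veh, G0s2 was lower in iWAT macrophages (-3.02 ± 0.36, adjusted p = 0.0026) and iWAT APC (-3.44 ± 0.57, adjusted p = 0.00474), Hilpda was lower in iWAT APC (-1.23 ± 0.31, adjusted p = 0.0409) and Plin4 higher there (3.82 ± 0.86, adjusted p = 0.0225). The iWAT files held no cell at or above the limit for mitochondrial UMIs used here and none above 21957 UMIs, whereas each eWAT file held cells past both limits before filtering, and the part of that difference in these values was not tested.

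Among 30 other genes of droplet assembly and turnover, 25 were tested in at least 1 class. In eWAT, 13 of 143 pairs passed for the ob/ob effect, 4 higher and 9 lower (9.09%), and 16 for the Rosi effect, 8 higher and 8 lower (11.2%), shares near those of all genes. In iWAT 1 and 3 of 111 pairs passed, and between ob/ob-Rosi and WT-Veh 0 pairs passed in either depot. Lipa, the acid lipase that breaks down sterol esters and triglycerides in lysosomes, followed Plin2. In eWAT macrophages it stood at 814 and 885 CPM in WT-Veh, 186 and 262 in ob/ob-Veh, and 902 and 708 in ob/ob-Rosi (-2.12 ± 0.26, adjusted p = 0.00061, and 2.08 ± 0.26, adjusted p = 0.000511), and it was also lower in ob/ob-Veh in eWAT APC, DC, EC, NKT and mesothelial cells and in iWAT macrophages. Lipa is a macrophage gene in abundance, so the remark on free macrophage RNA holds for it too. Mgll, the lipase that takes the last fatty acid off, was lower in eWAT macrophages of ob/ob-Veh (-1.77 ± 0.29, adjusted p = 0.00231), and Abhd6, another monoacylglycerol lipase, was higher (1.64 ± 0.38, adjusted p = 0.00991).

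In eWAT NKT, Dgat1, which makes triglyceride, stood at 47.6 and 60.4 CPM in WT-Veh, 392 and 527 in ob/ob-Veh, and 160 and 83.1 in ob/ob-Rosi (2.88 ± 0.36, adjusted p = 0.000324, and -1.89 ± 0.35, adjusted p = 0.00714). Lpcat2, an acyltransferase found on droplets, stood there at 6.15 and 2.26 CPM, 60.3 and 80.0 CPM, and 6.66 and 8.37 CPM (4.14 ± 0.49, adjusted p = 0.000246, and -2.97 ± 0.45, adjusted p = 0.00208). Like Hilpda, both were highest in the ob/ob-Veh libraries. Dgat2, the other enzyme of triglyceride synthesis, was higher in eWAT EC of ob/ob-Veh, at 22.3 and 12.9 CPM against 1.09 and 3.14 CPM (2.65 ± 0.66, adjusted p = 0.0436), beside the Adipoq values given above, and in iWAT macrophages it was higher with rosiglitazone (2.01 ± 0.39, adjusted p = 0.0145). Hsd17b11, a droplet dehydrogenase, was lower with rosiglitazone in eWAT EC (-1.20 ± 0.26, adjusted p = 0.0257), and Mgll in eWAT APC (-1.04 ± 0.27, adjusted p = 0.0412). In eWAT macrophages the remaining genes the rule named for the Rosi effect were Lpcat2 (1.11 ± 0.30), Abhd6 (-1.95 ± 0.39) and Acsl4, a fatty acid ligase (-0.78 ± 0.27).

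Over the 12 means of a class in a depot, the genes most like Plin2 in level among 9272 genes were Lipa (Pearson r = 0.974), Dhrs3 and Nkiras2. Those most like Hilpda were Rgs1 (r = 0.927), Gsap and Ptpn7, those most like G0s2 were Adam12 (r = 0.962), Igsf10 and Agt, those most like Pnpla2 were Fam212a (r = 0.964), Kank3 and Cebpg, and those most like Plin1 were Bvht (r = 0.973), Acer2 and Meox2. The points share libraries and free RNA, and the values describe likeness only.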

How the data were processed

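Single-cell RNA was read from the SVF of eWAT and iWAT in 12 libraries, 2 per group and depot. The authors deposited UMI counts per gene and cell for each library, made with Cell Ranger 3.0.2 on mm10 and bcl2fastq 2.19.1.403 per the labels. The deposited counts were taken as they stood. Cells with 700 to 22000 UMIs, 200 to 6000 genes and under 25% mitochondrial UMIs were kept, as the methods of the study state. Each depot was clustered with scanpy 1.11.5 and igraph 0.11.9 under Python 3.11.15 (2000 variable genes without the members and the 30 other droplet genes, 25 components, 20 neighbours, Leiden resolution 1), with no integration of libraries. Clusters were named from marker lists. The naming rule was refined once clusters were seen, before groups were compared. Doublets were removed only in an alternative, with Scrublet.

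For each library and class of at least 20 cells the counts were added up and tested with the quasi-likelihood test of edgeR 4.0.16 (R 4.3.3) with TMM scaling, its filter on low counts and Benjamini-Hochberg adjustment over all genes of the class and contrast. The 3 groups of a depot shared 1 fit. SE is the log2 fold change divided by the square root of F. Neighbours in the order of classes were compared by an exact two-sided sign-flip permutation test on log2(CPM + 1), paired by library. Alternatives were DESeq2 1.42.0, other size factors, no filter, a replicate block, other resolutions, doublet removal, thinning to 700 UMIs and leaving out each library. The fit was tested on simulated data for the ob/ob effect in APC, EC, macrophages and NKT of each depot. It called 94 to 99% of 4-fold changes in these eWAT classes, and 74, 56, 92 and 8% in APC, EC, macrophages and NKT of iWAT, so an iWAT effect that did not pass may have been missed. Of 2-fold changes it called 17 to 33% in eWAT and 1 to 9% in iWAT. The changed genes were drawn only from those with higher mean counts, so these shares do not cover members with few UMIs. In eWAT APC, for example, Plin1 held 0 to 27 and Cidec 6 to 12 UMIs per library. An effect on such a member may have been missed in eWAT too. Counting intervals are exact, at 95%, and cover counting error only. Promoter windows came from RefSeq on GRCm38.p6, in which all 10 members had an entry.

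All 10 members are given. Of the other droplet genes, the 2 called genes with the largest change in each direction, class and contrast were named, and the 3 genes most like 5 of the members among genes of at least 10 CPM. The members and the lists were chosen with earlier results of these data known. The labels do not say that libraries of a group came from separately handled tissue beyond separate mice, and p-values measure the spread between these libraries.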

Additional observations from a re-analysis of the deposited data

Results flagged for a closer look

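In macrophages, the effects on G0s2 differed between the depots by the test of the interaction, with iWAT minus eWAT at -2.41 on the log2 scale for the ob/ob effect and at 3.19 for the Rosi effect. The subclasses that made up macrophages differed between the depots as well. Within PVM, G0s2 was lower in ob/ob-Veh than in WT-Veh in both depots, though it passed only in iWAT. In eWAT, the ob/ob effect on Plin4 was 7.15 higher in EC than in APC on the log2 scale, and that in APC shrank to -2.17 without WT-Veh replicate 2. The effects on Hilpda in eWAT also differed between classes, with NKT minus macrophages at 4.57 for the ob/ob effect and at -4.49 for the Rosi effect, in a comparison added after the values were seen.

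Clusters that no marker list named entered no comparison. In eWAT cluster 5 the mean Lipe level of ob/ob-Veh was 2.07 times that of WT-Veh, with 9.94 and 10.1 CPM in WT-Veh, 20.2 and 21.4 in ob/ob-Veh, and 10.8 and 14.5 in ob/ob-Rosi. In eWAT cluster 10 the ratio was 2.30, with 13.7 and 30.2 CPM, 33.6 and 67.3 CPM, and 13.02 and 17.7 CPM. Neither ratio was tested.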

How the results depend on the processing

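The 59 single calls were recomputed under 787 alternatives, of which 679 kept the call, 108 lost it and 0 turned its direction. Calls were lost most often without ob/ob-Veh replicate 2 (24), without ob/ob-Veh replicate 1 (22) and with cells thinned to 700 UMIs (13). With each library left out in turn, member calls ranged from 10 to 19 for the eWAT ob/ob effect, 8 to 19 for the eWAT Rosi effect, 0 to 1 for eWAT ob/ob-Rosi against WT-Veh, 0 to 15 for the iWAT ob/ob effect, 0 to 12 for the iWAT Rosi effect and 0 to 3 for iWAT ob/ob-Rosi against WT-Veh. Subclasses and interactions were not run without single libraries. Thinning gave 9 calls for the eWAT Rosi effect, 0 for eWAT ob/ob-Rosi against WT-Veh and 4 for the iWAT ob/ob effect, with fewer pairs tested. DESeq2 gave 15, 10 and 3 calls for the 3 iWAT contrasts, 5 depot interactions, 17 depot contrasts and 28 subclass effects. Without the filter on low counts there were 23 calls for the eWAT Rosi effect, 5 for eWAT ob/ob-Rosi against WT-Veh, 15, 12 and 4 for the 3 iWAT contrasts, 51 class interactions, 12 depot interactions, 24 depot contrasts and 47 subclass effects, with more pairs tested. Leiden resolution 0.5 gave 1 call for iWAT ob/ob-Rosi against WT-Veh. Scrublet marked 31.8% of the iWAT WT-Veh replicate 1 cells and at most 5.18% elsewhere. The cause of the other moves was not tested.

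Replicate numbers in the labels pair no stated batch, 2 numbers a group are too few to show a pairing, and the correlations of same-numbered deviations ran from -0.012 to 0.737. They exceeded 0.1 for all 3 pairs of groups in eWAT APC, eWAT EC and iWAT EC and not in the other 5 classes checked, so results are stated without the block. With a replicate block there were 22 and 19 calls for the eWAT effects, 4 for eWAT ob/ob-Rosi against WT-Veh, 11, 6 and 1 for the 3 iWAT contrasts, 4 depot interactions, 17 depot contrasts and 44 subclass effects, and 1 single call was lost, that of Pnpla2 in eWAT BC (adjusted p = 0.154). The order of classes gave 3 steps at an adjusted p of 0.05 with a pseudocount of 10 CPM.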

Other observations

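A group of eWAT myeloid cells led by Lyz1, Ear2 and Ccr2 (cluster 5) was not named from the marker lists. Plin2 stood there at 1408 and 1051 CPM in WT-Veh, 463.9 and 410.5 in ob/ob-Veh, and 933.7 and 1158 in ob/ob-Rosi. Hilpda stood at 275 and 227 CPM, 99.1 and 96.1 CPM, and 265 and 123 CPM in the same order. In both genes the ob/ob-Veh libraries were the lowest, and no test was made.

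In eWAT cluster 10, Plin2 stood at 2035 and 1784 CPM, 357 and 255 CPM, and 1204 and 1431 CPM, and Hilpda at 324 and 195 CPM, 30.1 and 32.4 CPM, and 251 and 138 CPM.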
